A study of Saccharomyces cerevisiae with 22 samples.

Results

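The aminoacyl-tRNA synthetase genes of budding yeast were followed through 15 min without glucose: 34 of the 5381 genes measured, taken by name from a fixed list of 21 cytosolic and 13 mitochondrial enzymes. Each enzyme joins 1 amino acid to its tRNAs, so the set supplies the charged tRNAs that ribosomes read. Yeast makes most of these enzymes in separate versions for the cytosol and for the mitochondrion, where a small set of membrane proteins of respiration is translated. All 34 are nuclear genes, and ALA1, GRS1, HTS1 and VAS1 are known to supply both compartments from 1 gene. The transcription factor Gcn4 is known to activate many amino acid biosynthesis genes and some synthetase genes when amino acids run short.

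Cells of the strains EY0690 (labelled w303) and BY4741 were grown in glucose-containing synthetic complete medium, at 30 °C, until the OD600 was 0.3 to 0.4. They were then either moved to the same medium without glucose for 15 min ("starved") or kept in glucose, and every culture received cycloheximide at 100 ug/ml for 1 min before harvest. Ribosome-protected fragments (footprints) and polyA-selected RNA were sequenced from 2 libraries per strain and condition. Unselected RNA came from 1 BY4741 total RNA library per condition and from 1 column per condition in which EY0690 total and RiboZero RNA were pooled. Counts lay between 698310 and 8110916 per footprint library and between 1146371 and 7003745 per polyA library, and the 4 EY0690 footprint libraries were all shallower than the 4 BY4741 ones. The BY4741 footprint libraries numbered 2 stood apart: their log2 levels correlated with those of the matching polyA library at 0.942 in starved cells and 0.946 in glucose, against 0.822 to 0.875 in the other 6 footprint libraries, so footprint results are also given without them. The labels do not say whether libraries of a group came from separate cultures, so p-values measure the spread between these libraries, which may be technical. Monosomes were isolated by sucrose gradient or by cushion, and the labels do not say which library had which. Levels are relative to the other RNA of a library, and in bulk cultures less RNA per cell and fewer cells with the RNA cannot be told apart.

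In glucose, the cytosolic enzymes were among the more abundant mRNAs and most mitochondrial ones among the scarcer, with no overlap between the lists. As CPM (counts scaled to a common library size, here by the trimmed mean of M-values, TMM) per kilobase of gene, the highest cytosolic polyA RNA levels were those of THS1 (threonyl; 829.8 ± 108 SD, n = 4), KRS1 (lysyl; 726.8 ± 225) and SES1 (seryl; 666.3 ± 292). The ranges of these 3 overlapped one another. The lowest cytosolic levels were those of ALA1 (alanyl; 180.9 ± 25.9), FRS2 (a subunit of the phenylalanyl enzyme; 167.0 ± 49.2) and YNL247W (cysteinyl; 160.2 ± 44.4). MSW1 (tryptophanyl; 70.2 ± 10.4), MSY1 (tyrosyl; 65.0 ± 27.2) and MSE1 (glutamyl; 61.3 ± 28.0) led the mitochondrial polyA list, and NAM2 (leucyl, also known as a splicing factor of mitochondrial introns; 21.4 ± 7.0), SLM5 (asparaginyl; 19.5 ± 8.95) and ISM1 (isoleucyl; 13.1 ± 3.35) closed it. Within EY0690 in glucose, the median cytosolic gene stood at percentile 88.9 of all polyA levels and the median mitochondrial gene at percentile 28.1, and in BY4741 the values were 90.3 and 22.8. MSY1, MSE1 and MSW1 stood above the median of all genes in EY0690, at percentiles 63.6, 61.4 and 59.9, and MSW1 at 51.1 in BY4741.

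Footprints set the lists further apart than mRNA did. KRS1 (869.0 ± 337 SD, n = 4), DED81 (asparaginyl; 663.2 ± 196) and GUS1 (glutamyl; 611.4 ± 224) carried the most footprints per kilobase in glucose, and MES1 (methionyl; 261.4 ± 95.1), GLN4 (glutaminyl; 244.8 ± 110) and YNL247W (180.9 ± 61.9) the fewest of the cytosolic list. Among the mitochondrial genes, footprints per kilobase were highest on MSK1 (lysyl; 26.2 ± 15.2), MSW1 (21.9 ± 7.44) and MSD1 (aspartyl; 18.7 ± 10.6) and lowest on ISM1 (11.5 ± 7.84), MSM1 (methionyl; 11.3 ± 3.60) and MSE1 (10.7 ± 3.60). MSE1 was thus the third of 13 by polyA RNA and the last by footprints, although neighbours in the mitochondrial footprint order differed by less than the SD of either. Summed over the lists, cytosolic counts exceeded mitochondrial counts between 28.2 and 140.5-fold in footprint libraries and between 11.1 and 33.9-fold in polyA libraries. The 13 mitochondrial genes together had 427 to 547 downstream counts per EY0690 footprint library and 380 to 2624 per BY4741 one. Footprint values of single mitochondrial genes can therefore rest on few counts.

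**Figure D1:**
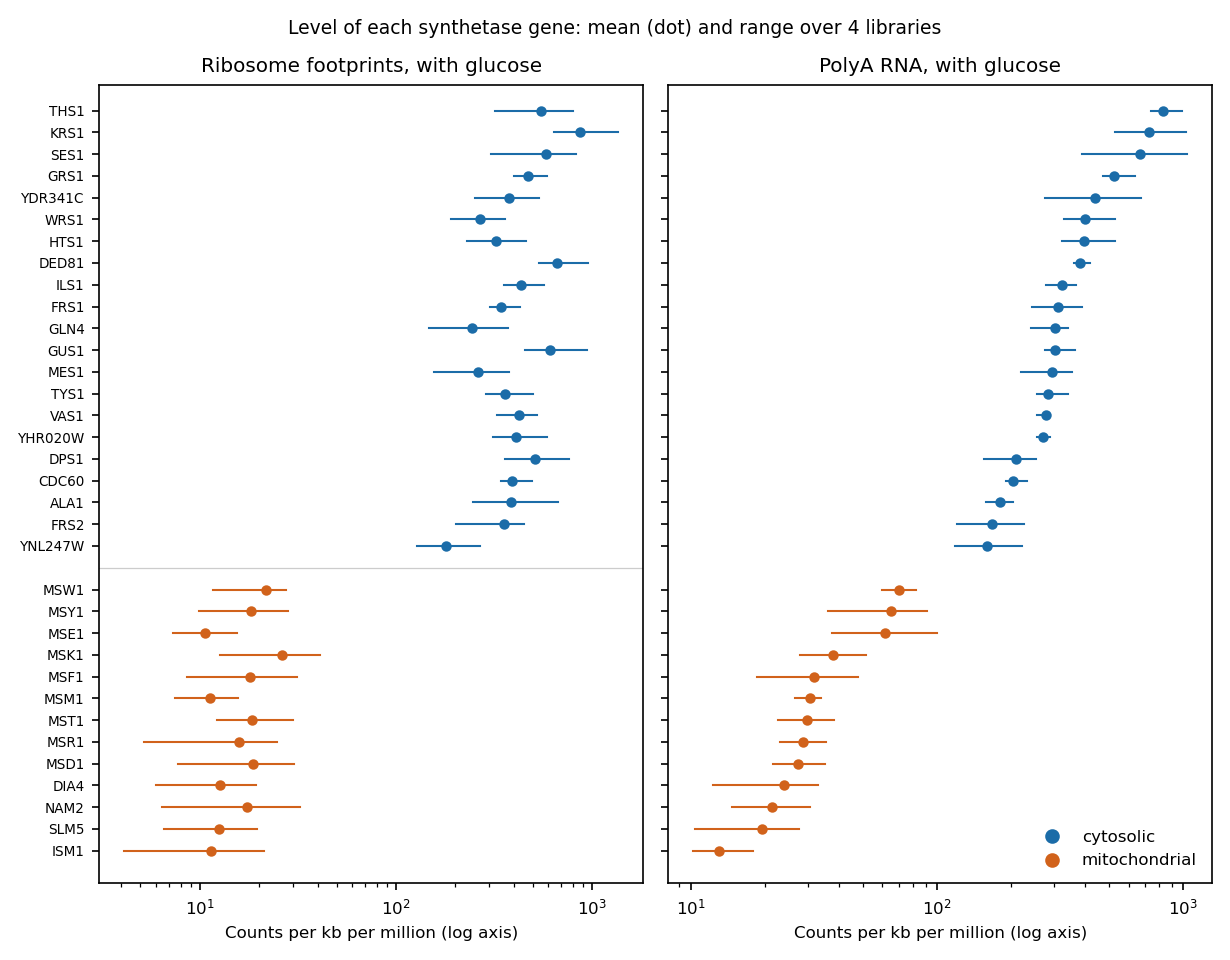
Level of each of the 34 genes in glucose, in footprints (left) and polyA RNA (right), as TMM-scaled CPM per kilobase on a log axis. Dots are means and lines the range over 4 libraries; the 21 cytosolic genes lie above the 13 mitochondrial ones, ordered by polyA level, and MSE1 is the last of its list in footprints and the third in polyA RNA.

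The start of the coding sequence separated 3 cytosolic genes from all other members. The deposited table counts an initiation region and the region downstream of it for each gene, and no source used here gives the bounds of the initiation region. VAS1 (valyl) had 45 of 32722 footprints there, 0.138% (95% exact interval 0.100 to 0.184), HTS1 (histidyl) had 50 of 13791, 0.363% (0.269 to 0.478), and YNL247W had 72 of 10776, 0.668% (0.523 to 0.841). These are the 3 lowest shares of the 34 genes. The next gene, ILS1 (isoleucyl), had 1.65%, the cytosolic median was 4.09% and the mitochondrial median 6.87%, up to 14.3% on TYS1 (tyrosyl), whose share ran from 3.67% to 39.9% over the libraries and was 24.2% without the BY4741 footprint libraries numbered 2. The intervals cover counting error only. The shares are not corrected for the length of a gene. Coding lengths were 3315 bases for VAS1, 2304 for YNL247W, 1641 for HTS1 and 1185 for TYS1. The median was 2004 bases in the cytosolic list and 1611 in the mitochondrial list. VAS1 and HTS1 are known to make their mitochondrial enzyme from the first start codon and their cytosolic enzyme from a later one. To show both starts, 30 bases around the annotated ATG and around the next in-frame ATG are given, read 5′ to 3′ on the gene's strand from RefSeq build R64, with the ATG in capitals.
VAS1 annotated start, chrVII:672171-672200, plus strand: aattacttagatggtATGaataagtggtta
VAS1 next in-frame ATG, chrVII:672309-672338, plus strand: gtcaggttctttaaaATGagcgatcttgat
HTS1 annotated start, chrXVI:639005-639034, minus strand: ctcgtctcttgcttaATGcttagtagatca
HTS1 next in-frame ATG, chrXVI:638945-638974, minus strand: tcttcgataatcaggATGtcatccgctacc
YNL247W annotated start, chrXIV:182860-182889, plus strand: gttcttattctatgcATGaatatcttcata
YNL247W next in-frame ATG, chrXIV:182899-182928, plus strand: agaagatatactataATGtctacgccgaag

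The next in-frame ATG is codon 47 of VAS1, codon 21 of HTS1 and codon 14 of YNL247W. In each, the base 3 before it is A, whereas the base 3 before the annotated ATG is G in VAS1 and T in HTS1 and YNL247W. An A at that place stands before 76.2% of the 21 cytosolic starts, 61.5% of the 13 mitochondrial starts and 61.6% of 5375 starts in the table. The base before later in-frame ATGs was not counted in other genes. A near in-frame ATG is not particular to the 3 genes. It is codon 7 in YDR341C and codon 26 in KRS1, which had 5.09% and 3.36% of footprints in the initiation region. Whether a later ATG bears on the low shares was not tested. PolyA RNA also had few counts in the initiation region of VAS1 (0.0945%), HTS1 (0.47%) and YNL247W (0.551%). The footprint ratio of initiation to downstream counts was therefore divided by the same ratio in polyA RNA. This enrichment was 1.47 for VAS1, 0.785 for HTS1 and 1.22 for YNL247W, against a median of 3.34 over 3685 genes with at least 20 polyA counts in the initiation region and 500 downstream footprints. The 3 genes stood at percentiles 2.96, 0.407 and 1.36 of those genes, and GLN4 stood between them at 1.45 (percentile 2.74). Without the BY4741 footprint libraries numbered 2, the enrichments were 0.885 for VAS1, 0.384 for HTS1, 1.18 for YNL247W and 1.95 for GLN4, against a median of 4.42 over 2239 genes, and the shares of VAS1 (13 of 16142 footprints, 0.0805%), HTS1 (9 of 5296, 0.170%) and YNL247W (28 of 4386, 0.638%) were still the 3 lowest. In EY0690 alone, VAS1 had 1 of 7216 footprints in the region, HTS1 1 of 1926 and YNL247W 3 of 1469, and in BY4741 they had 44 of 25506, 49 of 11865 and 69 of 9307.

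**Figure D2:**
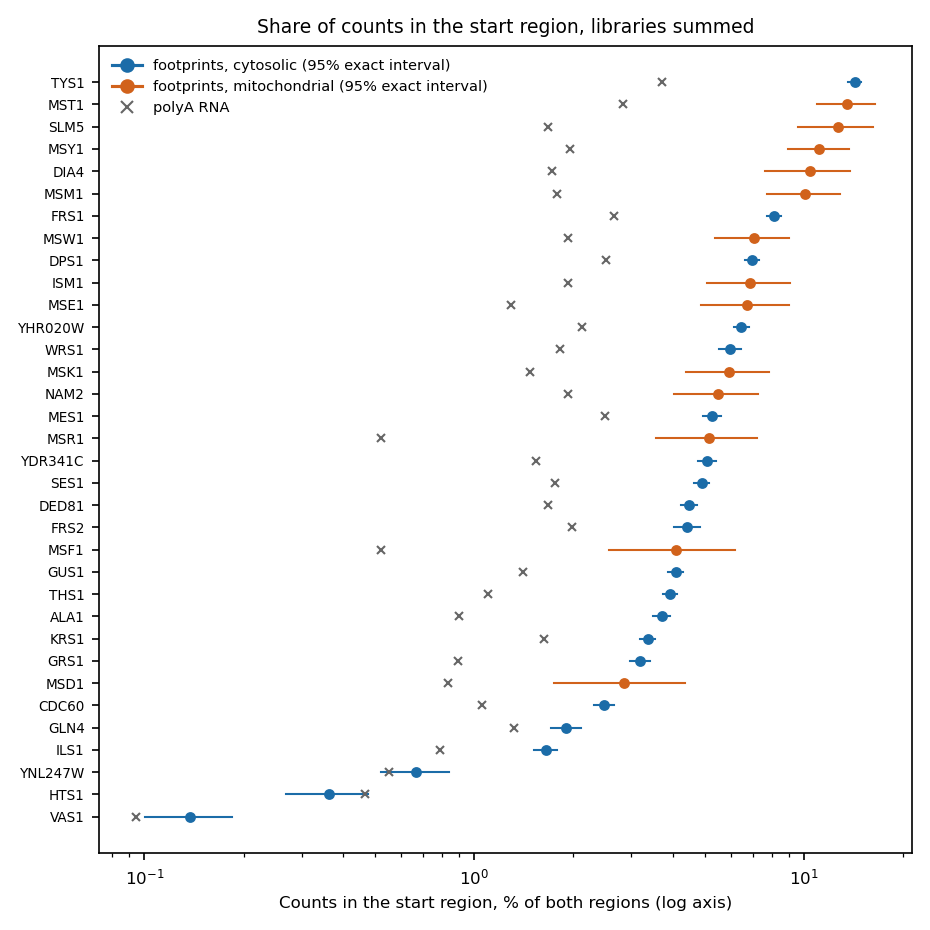
Share of counts in the initiation region for the 34 genes, ordered by footprint share, on a log axis: dots are 8 footprint libraries summed, with 95% exact intervals of counting error, and crosses are 8 polyA libraries summed. VAS1, HTS1 and YNL247W lie lowest, at 0.138%, 0.363% and 0.668% of footprints, and their crosses lie at or near their dots.

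Around the start, 9 cytosolic genes and no mitochondrial gene carried the letters of the Gcn4 site. These letters, TGACTC on either strand, occur between 250 bases before and 50 after the start in 9 of 21 cytosolic genes (42.9%: ALA1, GLN4, ILS1, KRS1, THS1, VAS1, YDR341C, YHR020W and YNL247W), in 0 of 13 mitochondrial genes and in 8.44% of 5379 genes. The stress response element CCCCT occurs in 1 of 21 cytosolic genes (FRS2), in 3 of 13 mitochondrial genes (DIA4, MSK1 and NAM2) and in 21.8% of all, and the PAC element GATGAG in 7 of 21, 1 of 13 and 20.1%. A match is a run of letters and not a shown binding site. Of the 13 cytosolic genes whose polyA RNA was not called lower in EY0690 (see further on), 5 have a Gcn4 match. Of the 8 called lower, 4 have one, and the windows of these 4 were chosen for that call. They follow as 30 bases each from RefSeq build R64, 5′ to 3′ on the gene's strand, with the match in capitals.
KRS1, chrIV:525294-525323, plus strand: tgaatgatgaaaTGACTCttaatgaacttc
ILS1, chrII:84346-84375, minus strand: tcgaaacaatgaTGACTCttaagcatgaaa
YDR341C, chrIV:1153809-1153838, minus strand: aaagtgtctaatGAGTCAgttatttctttc
YNL247W, chrXIV:182777-182806, plus strand: tttcatcgcgaaGAGTCAaaagacattatc

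All 34 genes have 1 coding exon and lie on 10 chromosomes in the cytosolic list and 9 in the mitochondrial list. The only neighbours are DED81 and YHR020W (prolyl), which are transcribed away from each other across 437 bases, chrVIII:143559-143995. No 28-base word of any member's coding sequence occurs elsewhere in the R64 genome on either strand.

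In glucose, ribosome occupancy was called higher than average for 13 of 21 cytosolic synthetase mRNAs and lower for 4 of 13 mitochondrial ones, the second share being near that of all genes. Occupancy is here footprints over polyA RNA relative to the average gene, tested with edgeR's quasi-likelihood test over 4 footprint and 4 polyA libraries, with p adjusted by Benjamini-Hochberg over 4364 genes and called at 0.05. No cytosolic gene was called lower and no mitochondrial gene higher, and 24.1% of all genes were called higher and 24.8% lower. The median was 0.73 on the log2 scale for cytosolic and -0.40 for mitochondrial genes, against -0.06 for all genes. DPS1 (aspartyl) led with 1.77 ± 0.26 (SE, adjusted p = 0.0001548), followed by FRS2 at 1.61, ALA1 at 1.52, GUS1 at 1.47 and CDC60 (leucyl) at 1.43. THS1, which had the highest mean polyA level in glucose over both strains and the third highest in BY4741 alone, had -0.22 ± 0.24 and was not called (adjusted p = 0.4606).

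DPS1 had 767.7 and 770.2 footprint CPM in EY0690 and 1275 and 606.0 in BY4741, against 421.1 and 360.5 polyA CPM in EY0690 and 364.9 and 258.8 in BY4741. Every footprint value lay above every polyA value. MSE1 had 17.5 and 14.3 footprint CPM in EY0690 and 11.8 and 25.1 in BY4741, against 160.6 and 103.0 polyA CPM in EY0690 and 60.5 and 70.8 in BY4741. In EY0690 the footprint values of MSE1 came from 17 and 11 counts. All of its footprint values lay below all of its polyA values, and its difference was -1.79 ± 0.31 on the log2 scale (SE, adjusted p = 0.0005595). DPS1 and MSE1 are the highest and lowest members of this comparison, so their separation adds nothing to the test. Such separation was not counted over all genes, and footprint and polyA CPM were scaled separately. MSY1 (-1.28), MSW1 (-1.13) and MSM1 (-0.94) were the other mitochondrial genes called lower. In each of 13 amino acids with separate enzymes the cytosolic gene had the higher occupancy, by 3.26 on the log2 scale for GUS1 over MSE1, by 2.10 for TYS1 over MSY1 and by 0.00101 for THS1 over MST1 (threonyl), the smallest; the median was 1.22. Without the BY4741 footprint libraries numbered 2, 13 cytosolic genes were called higher and 4 mitochondrial genes lower. Scaling by library size alone moved the median of all genes to -0.53 and the calls over all genes to 460 higher and 2067 lower, against 1051 higher and 1081 lower, and 10 mitochondrial genes were then lower.

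After 15 min without glucose, the polyA RNA of the cytosolic enzymes showed no called change. The mitochondrial list of 13 had 3 genes called higher and 1 lower, together a smaller share than among all genes. Of the 21 cytosolic genes 0 were called in either direction, where 39.6% of 5304 genes tested were called, 20.4% higher and 19.2% lower (edgeR's quasi-likelihood test, strain as a term); 2 cytosolic genes had an unadjusted p under 0.05. Their median log2 change was -0.14, from -0.36 ± 0.15 for MES1 (SE, adjusted p = 0.07373) to 0.41 ± 0.23 for DPS1 (adjusted p = 0.1696), and the median of all genes was -0.03. With the replicate number as a block, MES1 was called lower (-0.36 ± 0.13, adjusted p = 0.04809), and DESeq2 called it lower as well (adjusted p = 0.04088). Scaling by library size alone called MES1, TYS1 and WRS1 (tryptophanyl) lower, with 879 genes called higher and 1189 lower against 1083 and 1020, and without BY4741 starved library 2, DPS1 was called higher (0.58 ± 0.21, adjusted p = 0.03841). The dual genes had -0.15 (GRS1), -0.26 (HTS1), 0.06 (ALA1) and 0.07 (VAS1), none of them called.

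MSF1, the mitochondrial phenylalanyl enzyme, rose most: it had 119.7 and 71.7 CPM in starved EY0690 and 48.7 and 39.4 in starved BY4741 polyA RNA, against 67.4 and 56.2 in glucose-grown EY0690 and 29.5 and 26.2 in glucose-grown BY4741. Within each strain, both starved libraries lay above both glucose libraries. Its log2 change was 0.65 ± 0.18 (SE, adjusted p = 0.01372). NAM2 had 77.9 and 98.3 in starved EY0690 and 78.6 and 58.2 in starved BY4741, against 61.6 and 81.9 in EY0690 and 39.4 and 46.7 in BY4741 with glucose. The NAM2 values overlapped in EY0690 and not in BY4741, and the change was 0.49 ± 0.17 (adjusted p = 0.03885). MSD1 rose by 0.43 ± 0.15 (adjusted p = 0.03906).

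MSW1, the mitochondrial tryptophanyl enzyme, fell in polyA RNA. Its polyA RNA was at 62.5 and 64.4 CPM in starved EY0690 and 48.3 and 58.0 in starved BY4741, against 93.6 and 85.8 in EY0690 and 68.0 and 72.6 in BY4741 with glucose. All 4 starved libraries lay below all 4 glucose libraries, which held for 8.97% of all genes, and the log2 change was -0.45 ± 0.14 (SE, adjusted p = 0.02251). None of the 4 calls held in every one of 8 fits that left out 1 library: MSF1 stayed past the threshold in 7, MSW1 and NAM2 in 3 and MSD1 in 2. MSF1 was lost without EY0690 starved library 1 (adjusted p = 0.06328). The count of mitochondrial calls fell from 4 to 2 without BY4741 starved or glucose library 1. It fell to 1 without BY4741 glucose library 2, either EY0690 starved library or EY0690 glucose library 1. Without BY4741 starved library 1, MSW1, NAM2 and MSD1 were all lost, so the 2 calls there included a gene outside the first 4. In BY4741 alone 0 mitochondrial genes were called, and in EY0690 alone MSF1 and MSK1 were. Over all genes, BY4741 alone gave 376 calls higher and 5 lower, and EY0690 alone 934 and 654.

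Unselected RNA, with 1 library or pooled column per condition and so no test, gave a median log2 change of -0.15 in EY0690 and -0.13 in BY4741 for the cytosolic genes and of 0.24 in EY0690 and -0.03 in BY4741 for the mitochondrial genes. No cytosolic gene passed 2-fold in either strain.

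Among 23 other genes of tRNA charging and handling, the polyA RNA of 2 rose and that of 8 fell, where 20.4% of all genes were called higher and 19.2% lower. GRS2, a paralog of the glycyl gene GRS1, rose by 0.72 ± 0.21 (SE, adjusted p = 0.01579) and AIM10, which resembles prolyl enzymes, by 0.53 ± 0.14 (adjusted p = 0.01276). The largest decreases were those of CCA1, which adds the CCA end of tRNAs (-0.81), TRL1, the tRNA ligase (-0.80), SEN34 and SEN15, subunits of the tRNA splicing endonuclease (-0.77 and -0.62), and LOS1, a tRNA export receptor (-0.59). DTD1, SEN2 and GCN4 also fell, GCN4 by 0.40 on the log2 scale (SE 0.15, adjusted p = 0.04493). The median of the 23 genes was -0.11.

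**Figure D3:**
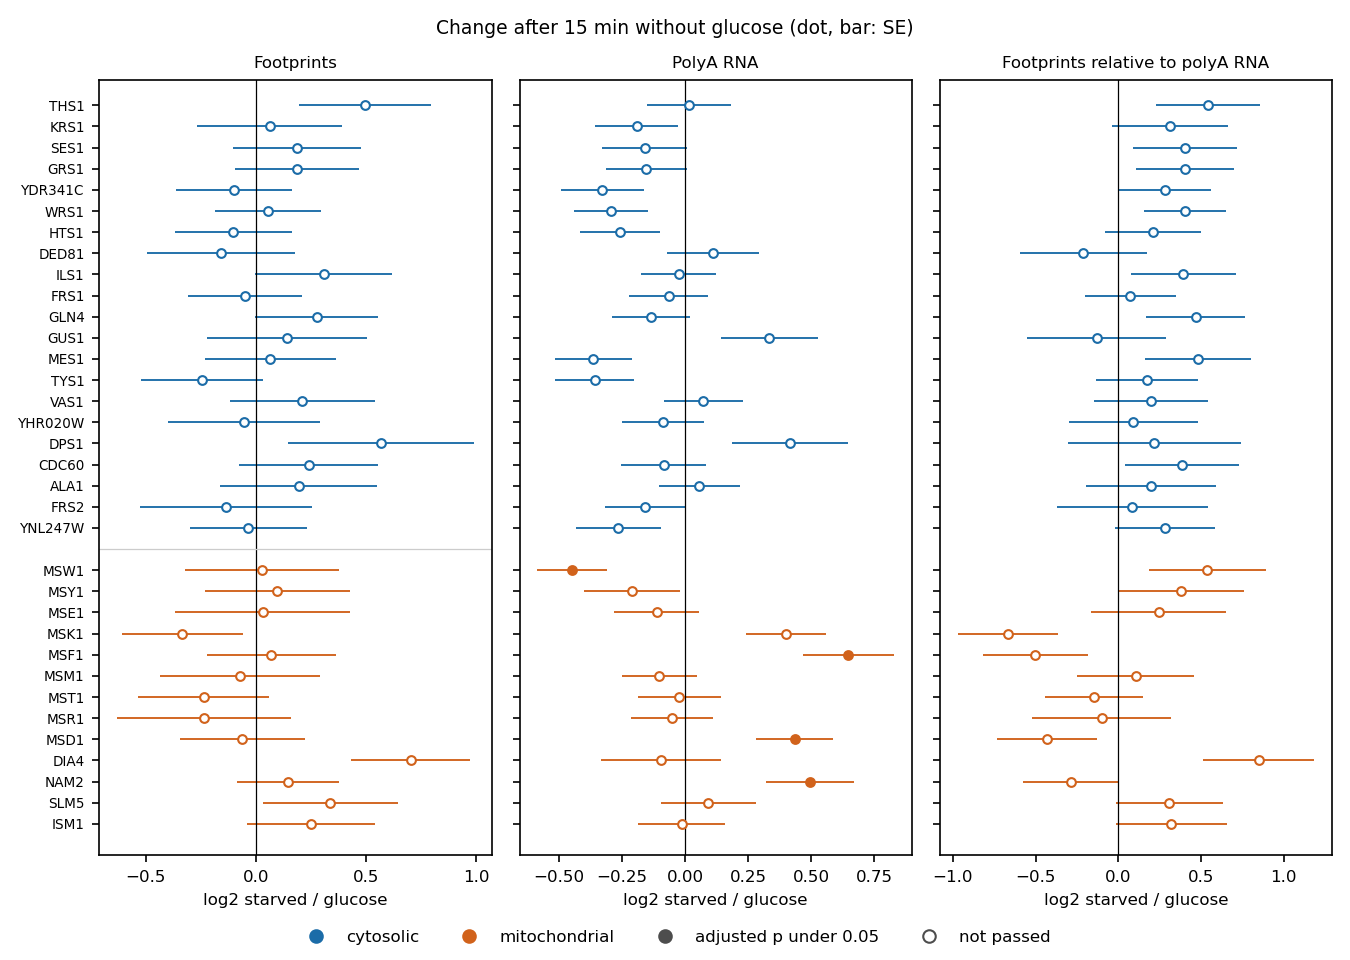
Log2 change after 15 min without glucose for each gene in footprints, polyA RNA and footprints relative to polyA RNA (dot, with SE); filled dots passed an adjusted p of 0.05. The 4 filled dots are MSF1, NAM2 and MSD1 above 0 and MSW1 below 0 in polyA RNA; no member passed in footprints or occupancy.

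Footprints of no member changed past the threshold when both strains were fitted together. Of the 34 genes 0 were called, where 3.19% of 5018 genes were, 147 higher and 13 lower, and with the replicate block 0 members were called among 324 genes higher and 105 lower; 1 member, DIA4, had an unadjusted p under 0.05, and DESeq2 called 0 as well. Median log2 changes were 0.07 for cytosolic, 0.03 for mitochondrial and -0.03 for all genes, and with scaling by library size alone they were -0.06, -0.07 and -0.17. DPS1 had the highest cytosolic value (0.57 ± 0.42 SE, adjusted p = 0.6116) and TYS1 the lowest (-0.24 ± 0.28), while DIA4, the mitochondrial seryl enzyme, had the highest mitochondrial value (0.70 ± 0.27, adjusted p = 0.2266) and MSK1 the lowest (-0.33 ± 0.27). The dual genes had 0.21 (VAS1), 0.19 (ALA1), 0.19 (GRS1) and -0.10 (HTS1).

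Footprints relative to polyA RNA likewise gave 0 calls among 34 members with edgeR and with DESeq2, where edgeR called 1.34% of 5018 genes, 14 higher and 53 lower, and with the replicate block 0 members among 94 genes higher and 152 lower; 2 mitochondrial genes, MSK1 and DIA4, had an unadjusted p under 0.05. Cytosolic values lay above 0 in 19 of 21 genes (median 0.28) and mitochondrial values in 7 of 13 (median 0.11), against 53.9% of all genes. They ran from THS1 (0.54 ± 0.32 SE) to DED81 (-0.21 ± 0.38) in the cytosolic list and from DIA4 (0.85 ± 0.33, adjusted p = 0.2188) to MSK1 (-0.67 ± 0.30, adjusted p = 0.2847) in the mitochondrial list. HTS1 (0.21), GRS1 (0.40), ALA1 (0.20) and VAS1 (0.20) were not called. MSK1 was called lower without BY4741 starved footprint library 2 (-1.04 ± 0.28, adjusted p = 0.04674) and in EY0690 alone (-1.41 ± 0.34, adjusted p = 0.03004). Without both BY4741 footprint libraries numbered 2, 0 members were called and the medians were 0.36 and -0.07. Cytosolic values lay above 0 in 21 of 21 genes in EY0690 alone (median 0.69) and in 2 of 21 in BY4741 alone (median -0.25).

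Fitted alone, the strains gave mostly opposite signs in footprints of members, and no difference between the strains was called. Genes of a library are scaled and counted together, so the counts of signs are not counts of replicates. In EY0690 alone the change lay above 0 in 21 of 21 cytosolic genes (median 0.50) and 3 of 13 mitochondrial genes (median -0.23), against 45.6% of all genes. In BY4741 alone it lay above 0 in 3 of 21 cytosolic genes (median -0.25) and 12 of 13 mitochondrial genes (median 0.32), against 52.8% of all genes. The ratio of summed cytosolic to mitochondrial footprints was 51.0 and 50.1 in starved against 31.1 and 28.2 in glucose-grown EY0690, and 102 and 45.8 in starved against 140.5 and 66.3 in glucose-grown BY4741. Starved libraries were thus higher than glucose libraries in EY0690. In BY4741 the conditions overlapped, since both libraries numbered 1 lay above both numbered 2, but within each number the starved library was the lower.

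THS1 had 1448 and 1386 footprint CPM in starved against 711.0 and 781.9 in glucose-grown EY0690, and 1962 and 1544 in starved against 1771 and 1564 in glucose-grown BY4741. DPS1 had 1745 and 1360 in starved against 767.7 and 770.2 in glucose-grown EY0690, and 1600 and 448.1 in starved against 1275 and 606.0 in glucose-grown BY4741. The starved and glucose values of both genes overlapped in BY4741 and not in EY0690. Fitted in EY0690 alone, THS1 rose by 0.94 ± 0.20 (SE, adjusted p = 0.007421) and DPS1 by 1.03 ± 0.21 (adjusted p = 0.005284), and no other member passed. Without the BY4741 libraries numbered 2, the footprint medians were 0.19 for cytosolic and -0.15 for mitochondrial genes, and DPS1 was called higher with both strains fitted together (0.78 ± 0.23, adjusted p = 0.03487).

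The test of the difference itself, the strain by condition term, called 0 of 5018 genes in footprints; 152 had an unadjusted p under 0.05, 1 of them a member (MSK1), and DESeq2 called 3 genes in all. Its values were above 0 in 21 of 21 cytosolic genes (median 0.65, from 0.38 for FRS1 to 1.06 for MES1) and below 0 in 12 of 13 mitochondrial genes (median -0.50, from -1.21 for MSR1 to 0.09 for MSW1), against 45.1% of all genes above 0. In 13 of 13 amino acids the cytosolic value exceeded the mitochondrial one, by a median of 1.28. No member had an adjusted p under 0.9974. With the strain and replicate number as a block, a fit chosen after seeing the data, 5 genes were called higher and 7 lower, 0 of them members, and 21 of 21 cytosolic and 2 of 13 mitochondrial values were above 0. Scaling by library size alone moved the median of all genes from -0.07 to -0.50, and 20 of 21 cytosolic and 0 of 13 mitochondrial values were then above 0. Leaving out the BY4741 libraries numbered 2 gave 21 of 21 and 2 of 13 above 0, with 0 members called. For polyA RNA the term called 0.17% of genes and 0 members, and cytosolic and mitochondrial medians were -0.07 and -0.06.

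**Figure D4:**
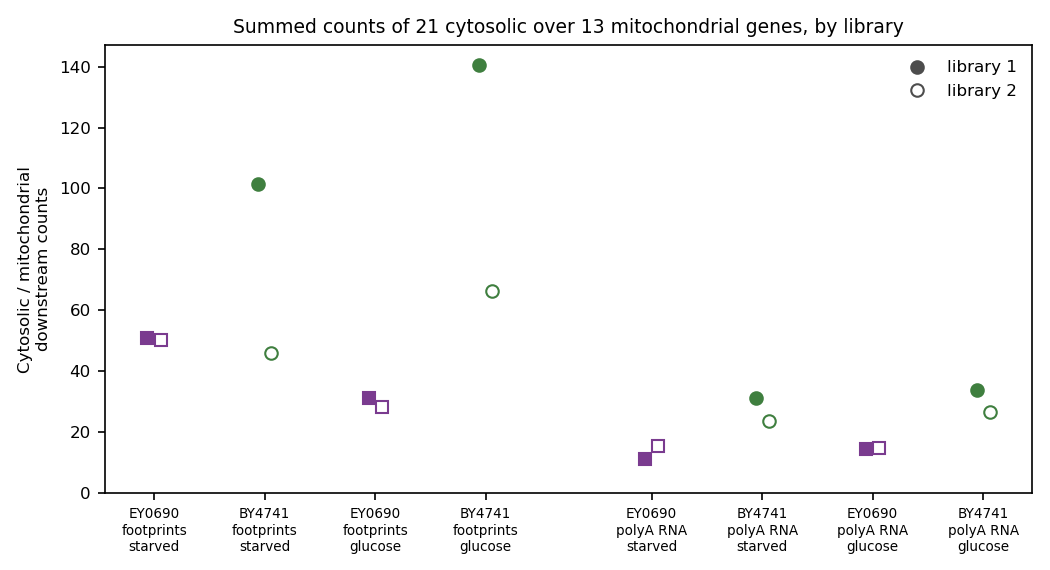
Summed downstream counts of the 21 cytosolic over those of the 13 mitochondrial genes in each footprint and polyA library (filled, library 1; open, library 2). The EY0690 footprint libraries lie at 51.0 and 50.1 starved and 31.1 and 28.2 in glucose; the BY4741 ones spread from 45.8 to 140.5, and all 4 EY0690 polyA libraries lie below all 4 BY4741 polyA libraries.

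Between the strains, more members differed in mRNA: EY0690 had less polyA RNA of many cytosolic enzymes and more of most mitochondrial ones than BY4741. Of 21 cytosolic genes 8 were lower and 1 higher in EY0690, and of 13 mitochondrial genes 9 were higher and 0 lower, where 17% of 5304 genes were called lower and 20.2% higher (edgeR's quasi-likelihood test, condition as a term). All 13 mitochondrial values lay above 0. The median log2 difference was -0.39 for cytosolic and 0.56 for mitochondrial genes, against 0.01 for all genes.

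SES1 had 493.1 and 559.0 CPM in starved and 538.0 and 678.9 in glucose-grown EY0690, against 1270 and 1026 in starved and 1443 and 1040 in glucose-grown BY4741. Its strains did not overlap, and the log2 difference was -1.08 ± 0.17 (SE, adjusted p = 0.0004875). YDR341C, the cytosolic arginyl enzyme, had 415.3, 493.0, 502.1 and 518.2 in EY0690 against 693.8, 869.2, 1234 and 952.4 in BY4741, a difference of -0.94 ± 0.17. KRS1 differed by -0.72, FRS1, the other phenylalanyl subunit, by -0.56, and YNL247W by -0.54; HTS1, WRS1 and ILS1 were also lower.

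FRS2 went the other way. It had 230.6, 310.1, 342.5 and 283.3 CPM in EY0690 against 199.9, 156.7, 200.4 and 183.1 in BY4741, without overlap, and was higher by 0.65 ± 0.16 on the log2 scale (SE, adjusted p = 0.0066). FRS1 and FRS2 encode the subunits of 1 enzyme, and their polyA RNA differed between strains in opposite directions. In unselected RNA, which has no test, both were lower in EY0690, with log2 differences for FRS2 of -0.40 starved and -0.44 in glucose, and for FRS1 of -0.38 starved and -0.28 in glucose. Strain and preparation cannot be told apart in unselected RNA, since only the EY0690 column held RiboZero RNA. In the window around the start, 4 of the 8 cytosolic genes called lower in EY0690 had a Gcn4 match, as had 5 of the other 13.

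MSF1 had the largest mitochondrial difference, with 119.7, 71.7, 67.4 and 56.2 CPM in EY0690 against 48.7, 39.4, 29.5 and 26.2 in BY4741, 1.14 ± 0.18 on the log2 scale (SE, adjusted p = 0.0004879). DIA4 had 54.9, 40.3, 44.1 and 37.5 in EY0690 against 19.0, 17.4, 16.5 and 30.6 in BY4741, 1.09 ± 0.24. Neither gene overlapped between the strains. SLM5 (1.06), MSY1 (1.00), MSE1 (0.97), MSK1 (0.83), MSD1 (0.56), NAM2 (0.54) and MST1 (0.51) were also higher in EY0690. The 4 libraries of each strain did not overlap for 8 mitochondrial genes higher in EY0690 (9.94% of all genes), and for 10 cytosolic genes lower (10.1% of all genes) and 1 higher.

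For each of 13 amino acids the cytosolic gene had the lower difference of its pair: SES1 at -1.08 beside DIA4 at 1.09 for serine, KRS1 at -0.72 beside MSK1 at 0.83 for lysine, and DPS1 at 0.15 beside MSD1 at 0.56 for aspartate, the closest pair. Unselected RNA, untested, gave differences of EY0690 from BY4741 below 0 in 21 of 21 cytosolic genes under both conditions (medians -0.39 starved and -0.34 in glucose) and above 0 in 13 of 13 mitochondrial genes starved and 12 of 13 in glucose (medians 0.73 and 0.53), against 53.7% and 50.8% of all genes above 0. In unselected RNA the EY0690 column pooled total and RiboZero RNA and the BY4741 library was total RNA alone. Strain and preparation therefore cannot be told apart there. Single genes differed in size or sign between the RNA measures. SES1 was at -0.09 starved and -0.04 in glucose in unselected RNA, YDR341C at -0.13 starved and -0.34 in glucose, DIA4 at 0.51 starved and -0.12 in glucose, and DPS1 at -0.95 starved and -1.15 in glucose. Calls of 4 cytosolic genes (SES1, YDR341C, KRS1 and FRS2) and of 7 mitochondrial genes held in every one of 8 fits without 1 library. Counts of cytosolic calls fell to 4 without EY0690 starved library 1 and to 5 without either BY4741 or EY0690 glucose library 1. Fitted per condition, 1 cytosolic and 3 mitochondrial genes passed in starved libraries and 4 and 7 in glucose libraries. Over all genes, 420 of 5133 were called higher and 224 lower in starved libraries, and 844 and 678 of 5078 in glucose libraries.

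**Figure D5:**
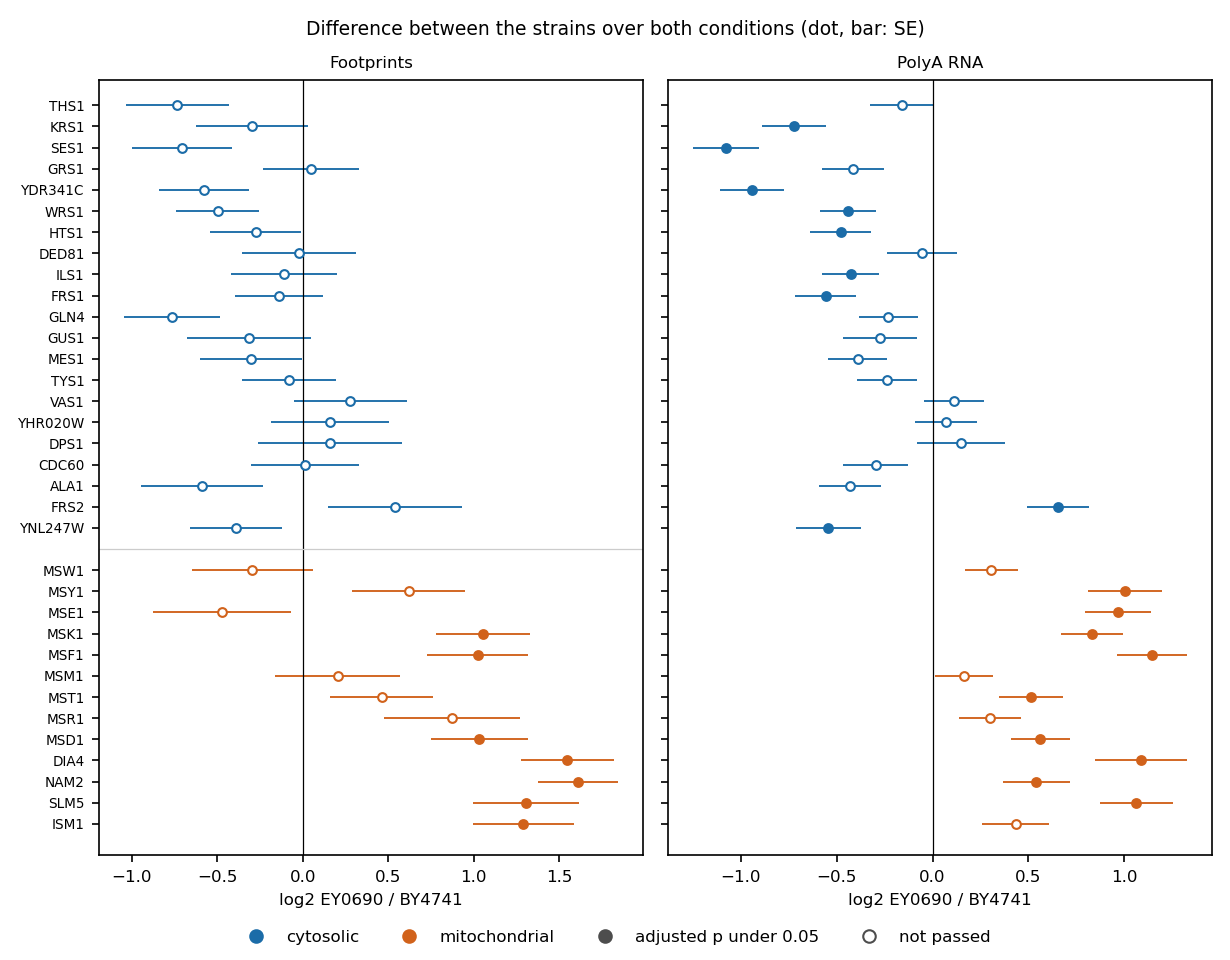
Log2 difference of EY0690 from BY4741 over both conditions for each gene in footprints (left) and polyA RNA (right), with SE; filled dots passed an adjusted p of 0.05. In polyA RNA 8 cytosolic genes are filled below 0 and FRS2 above it, and 9 mitochondrial genes are filled above 0; in footprints 7 mitochondrial genes and no cytosolic gene are filled.

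Footprints on mitochondrial synthetase mRNAs were also higher in EY0690. Of 13 genes 7 were called higher and 0 lower, where 11.2% of 5018 genes were called higher and 10.7% lower, and 0 of 21 cytosolic genes were called (3 had an unadjusted p under 0.05, and DESeq2 called SES1, THS1 and GLN4 lower). Medians were 1.02 for mitochondrial, -0.28 for cytosolic and -0.06 for all genes. NAM2 had 67.1, 66.5, 60.9 and 87.0 CPM in EY0690 against 28.4, 25.1, 17.3 and 22.1 in BY4741, a log2 difference of 1.61 ± 0.24 (SE, adjusted p = 0.001221). DIA4 had 37.9, 44.6, 24.8 and 26.0 against 15.5, 12.99, 8.08 and 9.09 (1.55 ± 0.27, adjusted p = 0.003102). The strains did not overlap for 7 mitochondrial genes, all higher in EY0690 (10.9% of all genes), these 2 among them, and for 4 cytosolic genes, all lower (9.51% of all genes).

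SLM5 (1.31), ISM1 (1.29), MSK1 (1.06), MSD1 (1.03) and MSF1 (1.02) were also higher in EY0690 footprints. ISM1 was not among the genes called in polyA RNA (0.43, adjusted p = 0.06769), and MSE1, higher in EY0690 polyA RNA, had -0.47 ± 0.40 in footprints (adjusted p = 0.4154). NAM2 and DIA4 stayed past the threshold in all 8 fits without 1 library, and SLM5 and ISM1 in 7. The count of 7 fell to 4 without either BY4741 glucose library or EY0690 glucose library 2, and to 3 without EY0690 glucose library 1, while 4 cytosolic genes were called without BY4741 starved library 2. With scaling by library size alone, NAM2 and DIA4 were the only mitochondrial genes called (the other 5 had adjusted p between 0.07425 and 0.2192), and SES1, THS1 and GLN4 were called lower. With glucose libraries alone the cytosolic minus mitochondrial median was -2.07, with SES1, THS1 and GLN4 called lower. With starved libraries alone it was -0.37 and 0 mitochondrial genes were called. Over all genes, 533 of 4367 were called higher and 418 lower in glucose, and 39 and 11 of 4543 when starved. Without the BY4741 libraries numbered 2, 9 mitochondrial genes were called higher and 5 cytosolic genes lower: ALA1 (-1.02), GLN4 (-0.97), THS1 (-0.87), GUS1 (-0.76) and SES1 (-0.75). That fit called 528 of 4735 genes higher and 502 lower.

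Of the other genes of tRNA charging and handling, 3 of 23 were higher and 4 lower in EY0690 polyA RNA, where 20.2% of all genes were called higher and 17% lower. FMT1, which formylates the mitochondrial initiator tRNA, was higher by 1.73 ± 0.43 (SE, adjusted p = 0.007156), AIM10 by 0.70 and HER2, a subunit of the mitochondrial glutamyl-tRNA amidotransferase, by 0.55. GCN20, a partner in activating the kinase Gcn2 (-0.76), LOS1 (-0.73), SEN15 (-0.85) and SEN54 (-0.49) were lower. In footprints, where 11.2% of all genes were called higher and 10.7% lower, FMT1 was higher (1.81), and TPT1, a tRNA splicing phosphotransferase (-1.26), and GCN20 (-0.84) were lower. In glucose, occupancy was called higher for 4 of the 20 listed genes tested, GCN1 (1.86), ARC1, which binds the methionyl and glutamyl enzymes (1.00), and TEF2 and TEF1, near-identical genes of elongation factor 1A whose counts may be split between them (1.24 and 0.82), and lower for 10, with SEN2 (-1.47), SEN34 (-1.41) and GCN4 (-1.40) lowest; 24.1% of all genes were called higher and 24.8% lower.

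The share of footprints in the initiation region was lower in starved than in glucose-grown cells for 2 cytosolic genes. Relative to the average gene, this share changed by -1.62 ± 0.42 on the log2 scale for CDC60 (SE, adjusted p = 0.02766, edgeR's quasi-likelihood test) and by -1.83 ± 0.53 for FRS2 (adjusted p = 0.0485), with 18 cytosolic and 0 mitochondrial genes testable and 2.09% of 2870 genes called lower. VAS1, HTS1 and YNL247W had too few counts there to be tested. CDC60 had 1.99% and 1.13% of its footprints in the region in starved EY0690 and 1.18% and 1.26% in starved BY4741, against 2.15% and 2.69% in EY0690 and 5.61% and 2.18% in BY4741 with glucose. All 4 starved values lay below all 4 glucose values. The FRS2 share was 1.67% and 0.714% in starved EY0690 and 1.08% and 3.71% in starved BY4741, against 1.75% and 3.33% in EY0690 and 7.74% and 5.23% in BY4741 with glucose, so its conditions overlapped across the strains and not within either. The median of the 18 genes was -0.67, with 15 below 0, against 0.05 for all genes. Both calls were lost without BY4741 starved library 1, EY0690 starved library 2 or either EY0690 glucose library, and FRS2 also without BY4741 glucose library 2. Without BY4741 starved library 2, or without both BY4741 libraries numbered 2, the calls were CDC60, FRS2, KRS1, DED81 and ALA1, all lower. Calls over all genes rose too: 194 of 2237 genes were lower in the first of these fits and 128 of 1685 in the second, against 60 of 2870.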

How the data were processed

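Footprints, polyA RNA and unselected RNA were compared over 18 single libraries and 2 pooled columns, made from 22 samples in 14 groups. The deposited table holds raw counts per gene, in an initiation region and downstream of it, with RPKM beside them; the deposited RPKM lay within 2% of counts over length and was used only for that check, in the 18 single libraries. Reads were aligned with Bowtie 0.12.8 to build R64, per the submitters' processing notes. No source used here names the counter or its strand setting. The 12 log2 columns of the authors were not used.

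Downstream counts were fitted with edgeR 4.0.16 (quasi-likelihood F test, TMM scaling) in R 4.3.3, keeping genes that reached 10 counts in 4 or more libraries per assay, with Benjamini-Hochberg adjustment over all tested genes and a threshold of 0.05. SE is the log2 change over the root of F. Terms were condition with strain, strain with condition, their product, and assay by condition (occupancy change). The initiation region was tested as region by condition, with the library as a term. Levels are TMM-scaled CPM, and unselected RNA had 0.5 added before logs. DESeq2 1.42.0, other scalings, no filter, the replicate block, left-out libraries and single strains were alternatives. Scripts were tested on simulated data.

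Members and lists were chosen with earlier results of these data known. Named members are those past the threshold (or the 5 largest each way where over 10 passed), the highest and lowest of each list, the 4 dual genes, and by level the 3 highest and 3 lowest; other genes were named up to 5 each way. A few more are given where a sentence lists a whole count; GLN4, THS1 in footprints and occupancy, and YDR341C's counts were singled out after their values were seen. Same-numbered libraries deviated together within a strain, with correlations between 0.149 and 0.687 for starved with glucose and between 0.178 and 0.471 for footprints with polyA RNA. The main tests had no term for the library number. The numbers were taken as pairs there only in the alternative fits with the replicate block, on the data's evidence and not the labels'. Across strains the correlations were 0.0468 to 0.124, and the numbers were not taken as pairs.

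Gene positions, starts and promoters came from RefSeq R64 by locus tag, since starts or ends listed in the table differed from it by up to 7 bases for 31 of 34 members. Whether sequence differences of EY0690 from R64 moved its counts was not tested.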

Additional observations from a re-analysis of the deposited data

How the results depend on the processing

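Counts of members called depended on the scaling. With library size alone, 3 cytosolic and 2 mitochondrial genes were called in the polyA response, 3 and 2 in the footprint strain difference, 10 mitochondrial genes in occupancy in glucose and 1 cytosolic gene in the initiation region. That scaling moved the median log2 value of all genes from -0.03 to -0.17 in the footprint response, from -0.06 to -0.18 in the footprint strain difference, from 0.03 to -0.12 and from -0.07 to -0.50 in the strain by condition terms of polyA RNA and footprints, and from 0.05 to 0.29 in the initiation region, where calls over all genes became 106 higher and 39 lower against 77 and 60. For occupancy change they became 4 higher and 48 lower against 14 and 53, and were 58 and 142 with DESeq2 and 92 and 110 without both BY4741 libraries numbered 2. Over all genes, the footprint response called 147 higher and 13 lower, against 240 and 59 with DESeq2, 380 and 199 without both BY4741 libraries numbered 2, 282 and 145 in EY0690 alone and 1 and 0 in BY4741 alone. DESeq2 called 1 cytosolic gene in the polyA response and 3 in the footprint strain difference, and with no filter on low counts 0 were called in the initiation region.

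With the replicate block 1 cytosolic gene (MES1) was called in the polyA response; no other count of members moved by over 1.5 times. With the block, calls over all genes were 324 higher and 105 lower in the footprint response, 94 and 152 in occupancy change, and 5 and 7, against 0 and 0, in the footprint strain by condition term, a fit added after seeing the data. The initiation region test has each library as a term.

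In single strains, the polyA response called 0 mitochondrial genes in BY4741 and 2 in EY0690. EY0690 alone gave 2 cytosolic footprint calls, a cytosolic minus mitochondrial footprint median of 0.73, and 1 mitochondrial occupancy call. Without both BY4741 footprint libraries numbered 2, cytosolic calls were 1 in the footprint response, 5 in the footprint strain difference and 5 in the initiation region. These, except for the footprint response, the fits per condition and DESeq2 for the strain differences were chosen after seeing the data. Strain differences in polyA RNA called 4 cytosolic genes in glucose, and 1 cytosolic and 3 mitochondrial genes when starved; in footprints 3 cytosolic genes in glucose and 0 mitochondrial genes when starved, with median differences of -2.07 and -0.37. Calls over all genes were also fewer when starved, at 420 higher and 224 lower in polyA RNA and 39 and 11 in footprints.

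Leaving out 1 library gave 0 to 1 cytosolic and 1 to 4 mitochondrial calls in the polyA response, 0 to 1 mitochondrial calls in occupancy change, 4 to 10 cytosolic calls in the polyA strain difference, 0 to 4 cytosolic and 3 to 8 mitochondrial calls in the footprint strain difference, 0 to 5 in the initiation region, and a polyA strain by condition median difference of -0.28 to 0.23. The other 363 summary values kept to within 1.5 times the count, or to within the replicate spread of the median. That spread was 0.20 on the log2 scale for polyA RNA, 0.64 for footprints and 0.67 for occupancy. A median difference kept in this way could still turn sign. In BY4741 alone the footprint medians were -0.25 cytosolic and 0.32 mitochondrial, against 0.07 and 0.03 with both strains, and their difference stayed within the spread.

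Signs turned in 24 single-gene values, none called. In polyA RNA, ALA1 was at -0.0565 with library size alone and -0.00414 in EY0690 alone, and ran from -0.0267 to 0.152 with 1 library left out; VAS1 was at -0.0368 with library size alone and ran from -0.0146 to 0.145; and GRS1 was at 0.0361 in BY4741 alone. In footprints, HTS1 was at 0.26 in EY0690 alone and ran from -0.227 to 0.10 with 1 library left out, TYS1 was at 0.0838 in EY0690 alone, and in BY4741 alone MSK1 was at 0.18, ALA1 at -0.19, GRS1 at -0.11 and VAS1 at -0.0531. In occupancy change, DED81 was at 0.17 in EY0690 alone and ran from -0.405 to 0.0221 with 1 library left out, ALA1 ran from -0.0136 to 0.455 and HTS1 from -0.0138 to 0.366, and in BY4741 alone ALA1 was at -0.41, HTS1 at -0.27, THS1 at -0.0669, GRS1 at -0.21 and VAS1 at -0.20. The cause was not tested for any of these. Each strain and condition had 2 libraries per assay, and EY0690 footprints were the shallowest.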
